A study of Mus musculus with 4 samples.

Results

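The platelet-derived growth factor (PDGF) genes of the mouse aorta were examined in vessels of wild-type mice and of mice with a deletion of Smad4 in smooth muscle. The members were the ligand genes Pdgfa, Pdgfb, Pdgfc and Pdgfd and the receptor genes Pdgfra and Pdgfrb, chosen by symbol. They were read by 14 probe sets that are paired with exactly 1 of these symbols, out of 34945 probe sets with 1 symbol and 45101 in all. Of the genes with 1 symbol, 18193 in number, the members are 6.

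Expression was measured on Affymetrix arrays in whole aortas of mice at 6 weeks of age, under an ordinary light cycle with free food. The group Smad4-KO had aortas of mice in which Smad4 was deleted in smooth muscle cells, and the group WT had aortas of wild-type littermates. The driver of the deletion, the strain and the sex are not stated in the labels. Smad4 was not measured separately in the other cells of the vessel. Vessels were pooled, 3 to 5 together, and 400 ng of the pooled RNA went onto an array. There were 2 arrays for each genotype, here called replicate 1 and replicate 2. Because whole vessels were pooled, fewer cells of a type and less RNA per cell cannot be told apart.

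PDGF ligands are secreted dimers that drive growth, migration and recruitment of mesenchymal cells. PDGF-A and PDGF-B are secreted active, whereas PDGF-C and PDGF-D carry an added CUB domain that proteases remove before they can bind. The receptors are tyrosine kinases that pair when a ligand dimer binds; the alpha receptor binds the A, B and C chains, and the beta receptor binds chiefly the B and D chains. In arteries PDGF-B from endothelium recruits smooth muscle cells and pericytes, which carry the beta receptor, and the alpha receptor marks fibroblasts of the adventitia.

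The arrays carry signals on a linear scale, with array medians of 111.4 to 137.4 over all probe sets. Smad4, the shared partner of the receptor-activated Smads, had signals of 4394 and 3819 (WT) against 2676 and 3580 (Smad4-KO) (log2 difference -0.40 ± 0.32, limma, adjusted p = 0.626). Which part of the gene was deleted is not given, so a probe set outside it checks nothing. The ratio of 3' to 5' signal for beta-actin was 11.4 for WT replicate 1 and 12.8 for Smad4-KO replicate 2, but 4.19 for WT replicate 2 and 2.83 for Smad4-KO replicate 1. In Smad4-KO, 6 of 12 contractile smooth muscle markers fell (1.39% of all genes tested fell), while 10 of 14 macrophage markers and 10 of 10 neuron markers rose (4.92% of all genes tested rose). A value after ± is the standard error of a log2 difference (Smad4-KO minus WT) from limma, n = 2 arrays per genotype. A gene passed the test at an adjusted p below 0.05 over all genes tested.

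Pdgfd was the member that fell, and Pdgfc, the other ligand with a CUB domain, did not pass the test. The 250 bases before the transcription start of these 2 genes are shown because the paralogs had different results. Capitals mark 3 motifs, searched on both strands. They are CAGAC, the core of the element that Smad proteins bind (its reverse complement where it lies on the other strand), the core promoter motif TATAAA, and the CArG box, bound by serum response factor. No 2 matches overlap.
Pdgfd (GRCm38.p6, chr9:6168236-6168485, + strand): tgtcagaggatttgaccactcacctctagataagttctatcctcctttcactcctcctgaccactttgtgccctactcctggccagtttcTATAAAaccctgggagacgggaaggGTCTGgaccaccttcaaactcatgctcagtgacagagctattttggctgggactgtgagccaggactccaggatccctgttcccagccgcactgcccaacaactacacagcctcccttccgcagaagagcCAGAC
Pdgfc (GRCm38.p6, chr3:81036166-81036415, + strand): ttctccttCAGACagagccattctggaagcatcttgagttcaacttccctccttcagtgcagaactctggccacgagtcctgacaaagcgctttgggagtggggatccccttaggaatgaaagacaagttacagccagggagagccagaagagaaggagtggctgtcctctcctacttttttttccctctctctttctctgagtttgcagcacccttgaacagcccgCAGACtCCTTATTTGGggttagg
Both windows held 2 matches to CAGAC, a motif present in 42.2% of 32851 promoter windows of the same length in the RefSeq table. Only the Pdgfd window of the pair held TATAAA, which 12.4% of all windows hold, and only the Pdgfc window held a CArG box, which 1.47% hold. The TATAAA of Pdgfd ends 155 bases before the start, and the CArG box of Pdgfc ends 8 bases before it. Whether either is used was not measured. The palindrome GTCTAGAC, in 0.167% of all windows, was in neither. The table held windows for 4 of the 6 members. The Pdgfra window had 1 match to CAGAC and none to TATAAA or the CArG box. Both Pdgfa windows, 1 for each of 2 starts, had 0 matches to CAGAC but matched GGGCGG, a GC box held by 32.7% of all windows. These are matches of letters, and no binding was measured.

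Pdgfd, whose product acts mainly through the beta receptor, was lower in Smad4-KO. Its brightest probe set (1456532_at) had signals of 5814 and 6649 in the WT pools, against 1555 and 969 in the Smad4-KO pools. Both Smad4-KO arrays were below both WT arrays, and the gap between genotypes was far wider than the gap between replicates. The geometric mean went from 6218 (WT) to 1227 (Smad4-KO), a 5.07-fold fall (log2 difference -2.34 ± 0.36, 95% interval -3.24 to -1.44), which passed the test in limma (adjusted p = 0.0266). Of all genes tested, 1.39% fell by this rule. Among the 189 genes that fell, Pdgfd stood in place 72 by the size of its difference. Genes that rose numbered 672, and with each array centred on its median 225 fell and 453 rose, Pdgfd among the falls (-2.55, adjusted p = 0.0259).

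**Figure D1:**
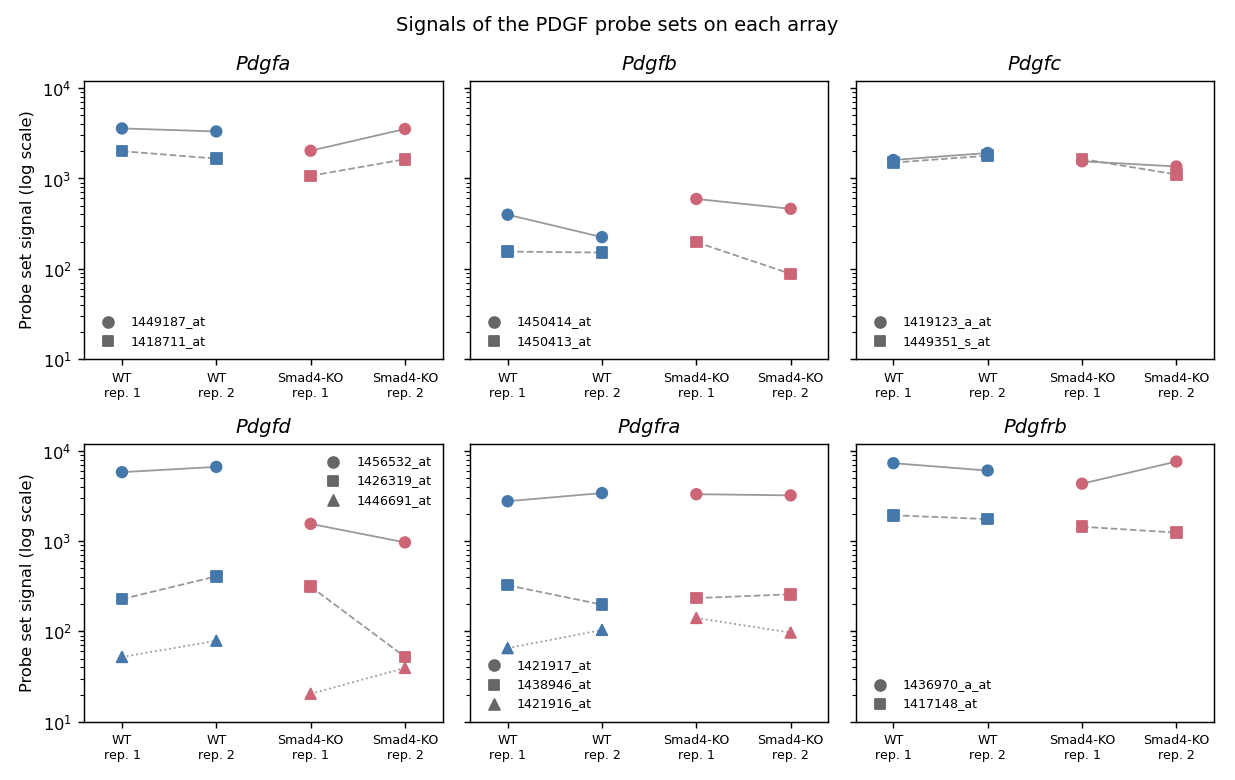
Signal of each PDGF probe set (log scale, vertical) on each of the 4 arrays (horizontal); blue is WT, red is Smad4-KO, each marker shape is a probe set, and grey lines join the 2 arrays of a genotype. The brightest Pdgfd probe set reads 5814 and 6649 (WT) against 1555 and 969 (Smad4-KO), while the brightest Pdgfra probe set stays between 2769 and 3411 on all arrays.

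The 4 differences between a Smad4-KO array and a WT array were all negative for this probe set, from -2.78 (Smad4-KO replicate 2 minus WT replicate 2) to -1.90 (Smad4-KO replicate 1 minus WT replicate 1). The arrays of a genotype differed by 0.19 in WT and 0.68 in Smad4-KO on the log2 scale. The median gap over all genes tested was 0.35 and 0.42. Smad4-KO replicate 2 therefore gave the larger fall and Smad4-KO replicate 1 the smaller.

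Pdgfd has 2 dimmer probe sets, and these had smaller differences. Probe set 1426319_at read 228 and 408 (WT) against 314 and 52.3 (Smad4-KO). The genotypes overlapped there, because Smad4-KO replicate 1 lay within the WT range and only Smad4-KO replicate 2 was low. Its log2 difference was -1.25 ± 0.92 (limma, probe set fit, adjusted p = 0.692), and without Smad4-KO replicate 2 it was 0.04. Probe set 1446691_at read 52.1 and 78.9 (WT) against 20.4 and 39.4 (Smad4-KO). Both Smad4-KO arrays were below both WT arrays, at signals where only WT replicate 2 exceeded 64 (log2 difference -1.18 ± 0.48, adjusted p = 0.383). With signals under 64 raised to 64 that difference was -0.15 (adjusted p = 0.895). Which part of the transcript each probe set reads is not known here.

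The call for Pdgfd depended on how the table was tested. When every probe set was fitted by itself, over 26209 probe sets, the brightest Pdgfd probe set kept its difference of -2.34 but did not pass (adjusted p = 0.0783), in a fit where 0.782% of probe sets passed. Under 3 of 15 alternatives of that fit it did pass, namely a filter at the 50th percentile (adjusted p = 0.0386), eBayes with trend and robust (0.0427) and a threshold of 0.10. With the mean of the 3 probe sets the difference was -1.59 (adjusted p = 0.127). Pdgfd did not pass either when genes of low signal were kept (adjusted p = 0.101) or with arrays blocked by their labelling controls (adjusted p = 0.0609), settings under which limma called 0 of all genes. It also did not pass without WT replicate 1 (-2.44, adjusted p = 0.098) or without WT replicate 2 (-2.24, adjusted p = 0.151), which leave 1 WT array that is assumed to vary like the Smad4-KO pair. It passed without Smad4-KO replicate 1 (-2.68, adjusted p = 0.0262) and without Smad4-KO replicate 2 (-2.00, adjusted p = 0.0485).

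Of 12 markers of contractile smooth muscle, 11 were lower on both Smad4-KO arrays than on both WT arrays, as Pdgfd was (21.4% of all genes tested were). The calsequestrin gene Casq2, named after its values were seen, was higher on both, as 25.9% of all genes tested were (0.59 ± 0.35, limma, adjusted p = 0.481). The summed signal of the 12 markers was 152790 and 181877 (WT) against 67153 and 75211 (Smad4-KO). Of the 12, 6 fell, where 1.39% of all genes tested did, and the median log2 difference of the 12 was -1.76. Smtn, the actin-associated smoothelin, had a difference of -2.34 ± 0.29 and Cnn1, calponin, one of -2.58 ± 0.29. None of the 12 was at 0, the lowest signal of any being 141. Macrophage markers had summed signals of 19578 and 12794 (WT) against 81905 and 119356 (Smad4-KO). Neuron markers summed to 1946 and 1743 (WT) against 38203 and 29377 (Smad4-KO). The lowest signal of any macrophage marker was 46.6 and of any neuron marker 30.0, both under 64. The part of these cell types in the Pdgfd result was not tested.

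The 3 tested genes whose values over the 4 arrays lay nearest to those of Pdgfd were Efhd1, Rbpms and Aknad1. Likeness was the distance between log2 values centred on each gene's mean, and the distances were 0.22, 0.24 and 0.25. Efhd1, a calcium-binding protein of mitochondria, read 5880 and 6531 (WT) against 1470 and 1123 (Smad4-KO) (-2.27 ± 0.31). Rbpms, an RNA-binding protein of muscle, read 6639 and 6779 (WT) against 1997 and 1145 (Smad4-KO) (-2.15 ± 0.38). Aknad1 read 208 and 194 (WT) against 48.7 and 34.4 (Smad4-KO) (-2.30 ± 0.33). On each of them, as on Pdgfd, Smad4-KO replicate 2 was the lowest array, a likeness made likely by choosing them on these same values.

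The other 5 members did not pass the test, so 1 of 6 members was called where 6.31% of all genes tested were. At an unadjusted p below 0.05 Pdgfd was again the single member, against 19.3% of all genes. The median log2 difference of the 6 was -0.24 and that of all genes tested -0.01. The probe set fit called 0 of the 14 probe sets in limma, with 1 at an unadjusted p below 0.05 (14.1% of all probe sets tested). Both Smad4-KO arrays were below both WT arrays on 5 of the 14 probe sets (20.1% of all probe sets tested) and above both on 1 (22.0%).

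**Figure D2:**
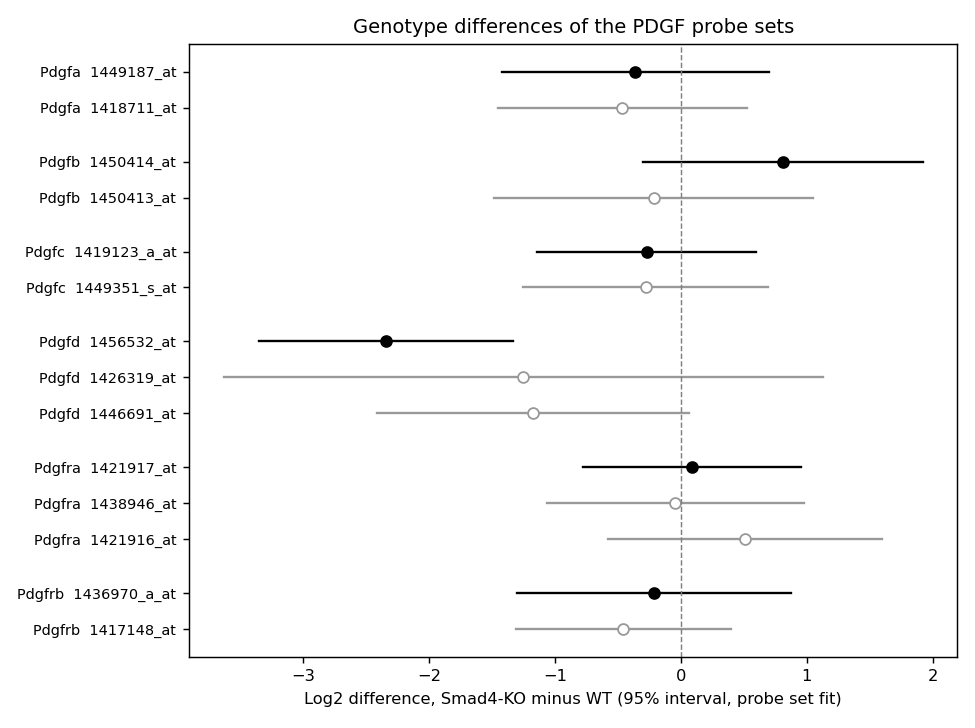
Log2 difference (Smad4-KO minus WT) of each PDGF probe set with its 95% interval from the limma fit of all probe sets; filled black points are the brightest probe set of a gene and open grey points the others. The interval of the brightest Pdgfd probe set, -3.35 to -1.33, is the only 1 of 14 that lies away from 0.

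Pdgfc, the other CUB domain ligand, read 1603 and 1915 (WT) against 1549 and 1358 (Smad4-KO) on its brightest probe set (1419123_a_at). Both Smad4-KO arrays were slightly below both WT arrays, as on 21.4% of all genes tested. The log2 difference was -0.27 ± 0.30 (95% interval -1.03 to 0.49, adjusted p = 0.747). Its other probe set read 1499 and 1788 (WT) against 1642 and 1108 (Smad4-KO) and overlapped, with a difference of -0.28 ± 0.38. Both Pdgfc probe sets thus had differences of like size, and a fall beyond 2.05-fold lay outside the interval of the brightest.

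The CUB domain ligands were also set against each other within arrays, which removes the scaling of an array. The log2 ratio of Pdgfc to Pdgfd was 2.07 higher in Smad4-KO than in WT, and it was higher on both Smad4-KO arrays than on both WT arrays. The exact permutation test over 4 arrays, two-sided, gave p = 0.333, the smallest that 2 against 2 arrays allow (adjusted p = 0.5 over 3 ratios). The ratio of Pdgfa to Pdgfb differed by -1.17 (exact p = 0.333), by -0.59 without Smad4-KO replicate 1, by -1.76 without Smad4-KO replicate 2 and by -0.71 with the mean of probe sets. That of Pdgfra to Pdgfrb differed by 0.30 (exact p = 0.667). The 2 Pdgfra to Pdgfrb ranges overlapped, and without Smad4-KO replicate 1 that difference was -0.13. A ratio within an array shows that 2 probe sets changed unequally, not that either kept its level.

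Pdgfa, which encodes the A chain made by many cells of the vessel wall, differed mainly on 1 array. Its brightest probe set (1449187_at) read 3583 and 3317 (WT) against 2029 and 3534 (Smad4-KO). Smad4-KO replicate 1 was low and Smad4-KO replicate 2 lay within the WT range, so the genotypes overlapped. The log2 difference was -0.36 ± 0.38 (95% interval -1.31 to 0.58, adjusted p = 0.727), and without Smad4-KO replicate 1 it was 0.04. The other Pdgfa probe set (1418711_at) had the same low array, at 2005 and 1660 (WT) against 1070 and 1632 (Smad4-KO), with a difference of -0.47 ± 0.38.

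Pdgfb, the B chain ligand of endothelium and platelets, was the member with the highest difference, but it did not pass. Its brightest probe set (1450414_at) read 397 and 224 (WT) against 593 and 461 (Smad4-KO). Both Smad4-KO arrays were above both WT arrays, as on 25.9% of all genes tested, and the WT replicates themselves differed by 0.82 on the log2 scale. The difference was 0.81 ± 0.40 (95% interval -0.18 to 1.80, adjusted p = 0.367), and it was 1.22 without WT replicate 1, 0.40 without WT replicate 2 and 0.30 with the mean of both probe sets. The dimmer probe set (1450413_at) read 155 and 151 (WT) against 197 and 87.8 (Smad4-KO). Here the Smad4-KO arrays lay on either side of WT (-0.22 ± 0.49), so the 2 Pdgfb probe sets differed in sign.

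Markers of endothelium and platelets, which are among the cells that make PDGF-B, are given beside it. Of 12 endothelial markers 0 passed in limma, with 1 at an unadjusted p below 0.05 (19.3% of all genes tested). Their median log2 difference was 0.20. Kdr, a VEGF receptor, had the lowest p of that list (1.40 ± 0.38, adjusted p = 0.113), and Nos3, endothelial nitric oxide synthase, a difference of -0.80 ± 0.35 (adjusted p = 0.3). Of 7 tested platelet markers 0 passed, with 4 at an unadjusted p below 0.05 (19.3% of all genes tested). Their median was 1.20. Ppbp, a platelet chemokine, read 513 and 342 (WT) against 3359 and 1457 (Smad4-KO) (2.40 ± 0.50, adjusted p = 0.0555). Pf4, platelet factor 4, had a difference of 1.34 ± 0.34 (adjusted p = 0.0935). The summed platelet signal was 2923 and 1918 (WT) against 8264 and 5798 (Smad4-KO), and the lowest signal of any platelet marker was 23.8. The part of platelets in the Pdgfb values was not tested.

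**Figure D3:**
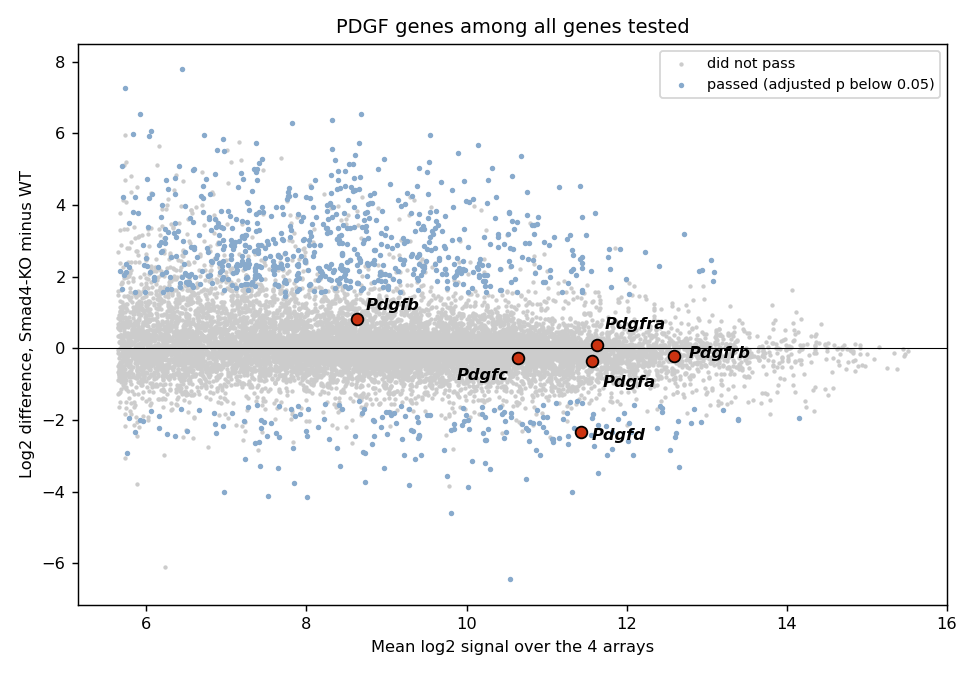
Log2 difference (Smad4-KO minus WT, vertical) against the mean log2 signal over the 4 arrays (horizontal) for the 13645 genes tested; grey points did not pass limma at an adjusted p of 0.05, blue points passed, and the 6 PDGF genes are red. Pdgfd lies at -2.34 among the genes that fell, and the other 5 lie between -0.36 and 0.81.

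Pdgfra, the alpha receptor of mesenchymal cells and fibroblasts, had the smallest difference of the 6 members. Its brightest probe set (1421917_at) read 2769 and 3411 (WT) against 3314 and 3215 (Smad4-KO). The Smad4-KO arrays lay between the WT arrays. The log2 difference was 0.09 ± 0.30 (adjusted p = 0.935), with a 95% interval of -0.67 to 0.85, so changes within that interval cannot be told from none. The sign was not stable, being -0.12 with each array centred on its median and -0.06 without WT replicate 1. Its other probe sets overlapped too: 1438946_at read 325 and 198 (WT) against 234 and 258 (Smad4-KO), and 1421916_at read 65.3 and 104 (WT) against 141 and 97.1 (Smad4-KO). Of 13 fibroblast markers tested beside it 0 passed in limma, with 1 at an unadjusted p below 0.05 (19.3% of all genes tested). Their median was -0.16. The 13 differences were 6 positive and 7 negative, from -1.52 to 1.20. Clec3b, tetranectin, was the lowest of them (-1.52 ± 0.35, adjusted p = 0.0735), and Cd34 had a difference of -0.71 ± 0.29.

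Pdgfrb, the beta receptor of smooth muscle cells and pericytes, did not pass on either probe set. The brightest (1436970_a_at) read 7308 and 6053 (WT) against 4331 and 7622 (Smad4-KO). The genotypes overlapped, since Smad4-KO replicate 1 was the lowest array and Smad4-KO replicate 2 the highest. The log2 difference was -0.21 ± 0.39 (95% interval -1.18 to 0.76, adjusted p = 0.866) and turned to 0.20 without Smad4-KO replicate 1. The other probe set (1417148_at) read 1935 and 1755 (WT) against 1445 and 1244 (Smad4-KO). There both Smad4-KO arrays were below both WT arrays (-0.46 ± 0.33, adjusted p = 0.681 in the probe set fit). The order of the arrays on the brightest Pdgfrb probe set was that of the 3' to 5' ratio of beta-actin, 12.8, 11.4, 4.19 and 2.83 from the highest array to the lowest. Other such ratios gave other orders. That of Gapdh was highest for WT replicate 1 (3.27, against 3.0 for Smad4-KO replicate 2). That of the Dap labelling control was lowest for WT replicate 2 (2.96, against 3.62 for Smad4-KO replicate 1). On Pdgfrb probe set 1417148_at, Smad4-KO replicate 2 was the lowest array. On the brightest Pdgfa probe set, Smad4-KO replicate 1 was lowest and WT replicate 2 next. The order there was that of the Gapdh ratio, 3.27, 3.0, 1.44 and 1.04 from the highest array to the lowest. On Pdgfa probe set 1418711_at the order differed, with WT replicate 2 (1660) above Smad4-KO replicate 2 (1632). The part of these ratios in the Pdgfrb and Pdgfa values was not tested.

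Of the cells that carry the beta receptor, pericytes were followed with 10 markers. Of these 1 fell and 0 rose (1.39% and 4.92% of all genes tested), with a median of -0.03. Smooth muscle markers are given above. The marker that fell was Cspg4, the proteoglycan NG2, which also binds PDGF-A and so stands in the list of binding partners as well. It read 4612 and 3490 (WT) against 981 and 1138 (Smad4-KO), a 3.80-fold fall (-1.92 ± 0.32, adjusted p = 0.0319). The 10 differences of the pericyte list were 5 positive and 5 negative, from -1.92 to 3.46. In limma, 4 of the 10 had an unadjusted p below 0.05 (19.3% of all genes tested did). Both Smad4-KO arrays were below both WT arrays on 5 (21.4% of all genes tested) and above both on 2 (25.9%). The summed signal was 46185 and 62810 (WT) against 31713 and 26984 (Smad4-KO).

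**Figure D4:**
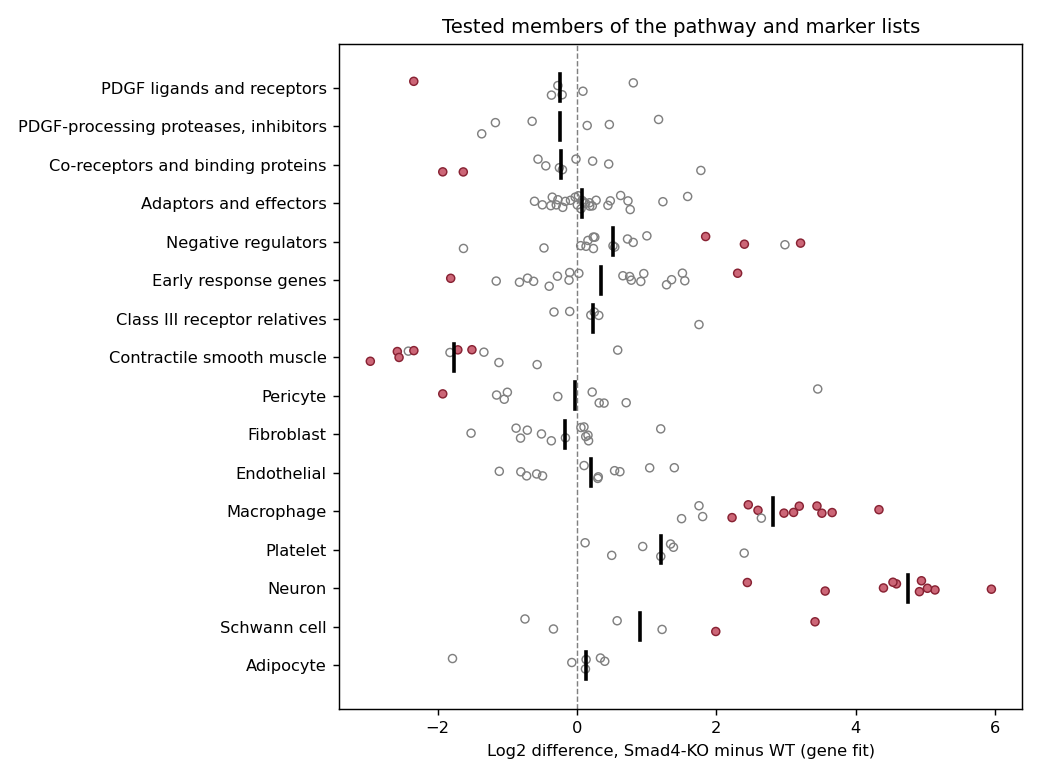
Log2 difference (Smad4-KO minus WT, horizontal) of each tested gene of the PDGF pathway lists and cell type marker lists (rows); filled red points passed limma at an adjusted p of 0.05, open points did not, and black bars are list medians. Of 12 contractile markers, 11 lie to the left of 0 and 1 to the right, at 0.59 (median -1.76); macrophage (2.81) and neuron markers (4.75) lie to the right, and the PDGF lists have medians between -0.25 and 0.52.

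Proteases free the CUB domain ligands, tissue plasminogen activator for PDGF-C and urokinase for PDGF-D, and furin-like convertases process the A and B chains. None of the 6 tested genes of this list passed in limma, with 2 at an unadjusted p below 0.05 (19.3% of all genes tested). Their median was -0.25. Plau, urokinase, read 58.2 and 81.2 (WT) against 106 and 228 (Smad4-KO), without passing the test (1.17 ± 0.47, adjusted p = 0.256). Serpini1, neuroserpin, an inhibitor of tissue plasminogen activator, read 1175 and 1475 (WT) against 754 and 455 (Smad4-KO) (-1.17 ± 0.38, adjusted p = 0.166). When all probe sets of a gene were averaged both turned sign, to -0.23 for Plau and 0.30 for Serpini1.

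Among 10 tested co-receptors and binding proteins, 2 fell and 0 rose (1.39% and 4.92% of all genes tested), with a median of -0.23. The second fall beside Cspg4 was that of Itgb3, the beta-3 integrin that works with the beta receptor at the cell surface. It read 2539 and 2286 (WT) against 779 and 778 (Smad4-KO), a 3.10-fold fall (-1.63 ± 0.29, adjusted p = 0.0382). The replicates of each genotype were close, and both Smad4-KO arrays were below both WT arrays, as on 21.4% of all genes tested. Neither call held when any 1 of the 4 arrays was left out, with adjusted p between 0.0538 and 0.152 for Cspg4 and between 0.08 and 0.186 for Itgb3.

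Adaptors and effectors that bind the activated receptors or act below them had no member past the test. Of 27 tested, limma called 0, with 3 at an unadjusted p below 0.05 (19.3% of all genes tested), and their median was 0.08. Grb2, which links receptors to Ras, read 569 and 399 (WT) against 917 and 1372 (Smad4-KO) (1.23 ± 0.37, adjusted p = 0.14). Slc9a3r1, a scaffold that binds the tail of PDGF receptors, read 1296 and 540 (WT) against 1690 and 3752 (Smad4-KO) (1.59 ± 0.59, adjusted p = 0.225).

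Negative regulators of receptor signalling included 3 that rose, of 17 tested, and 0 that fell (4.92% and 1.39% of all genes tested), with a median of 0.52. Dusp6, a phosphatase of ERK kinases, read 1300 and 847 (WT) against 3909 and 3650 (Smad4-KO), a 3.60-fold rise (1.85 ± 0.34, adjusted p = 0.0421). Inpp5d, the lipid phosphatase SHIP1 of blood cells, read 203 and 153 (WT) against 808 and 1082 (Smad4-KO), a 5.29-fold rise (2.40 ± 0.34, adjusted p = 0.0218). Dusp5, a nuclear phosphatase of ERK, read 21.2 and 33.8 (WT) against 182 and 337 (Smad4-KO) (3.21 ± 0.44, adjusted p = 0.0211). With signals under 64 raised to 64 Dusp5 was at least 3.87-fold higher. Without WT replicate 1, and without WT replicate 2, 0 of the 3 passed (adjusted p from 0.0735 to 0.225), nor did Dusp6 without Smad4-KO replicate 1 (0.0925) or replicate 2 (0.0787). Inpp5d also did not pass with its probe sets averaged (1.56, adjusted p = 0.0937), nor Dusp6 with median centring (1.64, adjusted p = 0.0846). When the probe sets of every gene were averaged, Dusp6 kept its difference of 1.85 but did not pass (adjusted p = 0.0626). Macrophage markers moved with them (median 2.81), and their part in these rises was not tested.

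Of 20 genes that respond early to growth factors, 1 rose and 1 fell, where 4.92% and 1.39% of all genes tested did, and the median was 0.34. A share of 1 in 20 rising is near that of all genes. Myc, a transcription factor of growth, read 108 and 105 (WT) against 487 and 570 (Smad4-KO), a 4.95-fold rise (2.31 ± 0.30, adjusted p = 0.0191). Fosb, a partner of Jun proteins, read 230 and 274 (WT) against 84.9 and 60.4 (Smad4-KO). Its log2 difference was -1.81 ± 0.33 (limma, adjusted p = 0.0406). With signals under 64 raised to 64 Fosb was at least 3.41-fold lower (-1.77 ± 0.30). On Myc both Smad4-KO arrays were above both WT arrays, as on 25.9% of all genes tested. On Fosb both were below, as on 21.4%. Neither passed without WT replicate 1 (2.33 for Myc, -1.94 for Fosb) or without WT replicate 2 (2.29 and -1.685). Fosb also did not pass without Smad4-KO replicate 2 (-1.57). When the probe sets of every gene were averaged, Fosb kept its difference of -1.81 but did not pass (adjusted p = 0.0615).

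The close relatives of the PDGF receptors, the class III receptor tyrosine kinases and their ligands, had 0 of 6 tested genes past limma's threshold. At an unadjusted p below 0.05 there was 1 (19.3% of all genes tested), and the median was 0.23. Csf1r, the receptor of macrophage colony-stimulating factor, read 6029 and 3087 (WT) against 9588 and 22040 (Smad4-KO). Both Smad4-KO arrays were above both WT arrays, as on 25.9% of all genes tested. The replicates of each genotype lay far apart (1.75 ± 0.55, adjusted p = 0.154). Kitl, the ligand of Kit, overlapped between the genotypes (0.31 ± 0.41, adjusted p = 0.794).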

How the data were processed

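The authors deposited linear intensity values, 1 for each probe set. Affymetrix Expression Console and RMA are named per the submitters' processing notes, with no version; the values are not on a log scale and each array has a mean of 500.0 after trimming, unlike RMA output. Values were taken to log2. Probe sets with exactly 1 symbol were kept (932 with several and 9160 with none were left out). The brightest probe set stood for a gene. A mean log2 signal under the 25th percentile (5.64) excluded a gene, leaving 13645; all 6 PDGF genes and all 14 of their probe sets passed. Genotypes were compared with limma 3.58.1 in R 4.3.3 (lmFit, eBayes), Benjamini-Hochberg adjusted over all genes, and again for 26209 probe sets. Labels call the arrays of a genotype biological replicates, so p-values measure the spread of pools, and their number limits the precision. The procedure was tested on simulated data. Promoter windows came from RefSeq, GRCm38.p6.

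The members and lists were chosen with earlier results of these data known. Named were all members, up to 4 called genes per list (or the 2 of lowest p), the 3 genes most like a called member, and Smad4. Marker lists also covered Schwann cells and fat. Of 6 Schwann markers 2 rose (Cdh19 3.42 ± 0.53, Mbp 1.99 ± 0.32), where 4.92% of all genes tested did. The 6 differences were 4 positive and 2 negative, from -0.74 to 3.42, with a median of 0.90. Both Smad4-KO arrays were above both WT arrays on 4 (25.9% of all genes tested) and below both on 2 (21.4%). Of 6 fat markers limma called 0, and 0 had an unadjusted p below 0.05 (19.3% of all genes tested did). Adipoq differed by 0.40 ± 0.76 and Lep by -1.79 ± 1.47. Other called markers with the largest differences were Synpo2 (-2.96) and Lmod1 (-2.55) of muscle, Aif1 (4.34), Ptprc (3.66), Tyrobp (3.52) and Cd68 (3.45) of macrophages, and Snap25 (5.95), Tubb3 (5.14), Th (5.03) and Nefm (4.95) of neurons. Alternatives were normalization, filters, summaries, moderation, blocks, a signal floor of 64, another threshold and leaving out each array.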

Additional observations from a re-analysis of the deposited data

How the results depend on the processing

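Pdgfd was lower under all 16 alternatives (-2.68 to -1.59) and kept its call under 11. Blocks, filters, moderation, array weights, the floor and the 0.10 threshold left its difference at -2.34. Leaving out 1 array could not turn its sign, since both Smad4-KO arrays were below both WT arrays. The 11 include the 0.10 threshold, which no gene past 0.05 can fail, and the replicate block set aside below. Pdgfd could turn only with quantile normalization (-2.30), cyclic loess (-2.23), median centring (-2.55) or the mean of its probe sets (-1.59), and stayed lower. It did not pass with a block that pairs arrays by their labelling controls (-2.34, adjusted p = 0.0609), with no filter (-2.34, adjusted p = 0.101) or with the mean of its probe sets (-1.59, adjusted p = 0.127). Leaving out 1 array gave -2.68 to -2.00, and the call ended without either WT array. Pdgfb (0.30 to 1.22) and Pdgfc (-0.48 to -0.14) kept their direction under all 16 and passed under none. Their direction too could turn only with those normalizations, median centring or the mean of probe sets. Pdgfc was -0.14 without WT replicate 2, -0.18 without Smad4-KO replicate 2 and -0.48 with median centring. Leaving out 1 array gave -0.77 to 0.036 for Pdgfa, -0.063 to 0.24 for Pdgfra and -0.62 to 0.20 for Pdgfrb, and median centring gave -0.12 for Pdgfra. Single probe sets ranged in the same way over -0.80 to 0.37 (Pdgfb 1450413_at), -0.56 to 0.0041 (Pdgfc 1449351_s_at), -2.54 to 0.041 (Pdgfd 1426319_at) and -0.40 to 0.31 (Pdgfra 1438946_at). The ratio of Pdgfra to Pdgfrb ranged over -0.13 to 0.73. With the mean of probe sets Serpini1 turned to 0.30 and Plau to -0.23. Leaving out arrays gave -0.16 to 0.79 for Kitl, -4.04 to 0.47 for Lep and -0.60 to 1.41 for Adipoq. The cause of these turns was not tested.

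Of genes, 861 passed. The replicate block gave 1321 and an adjusted p of 0.00815 for Pdgfd; an adjusted p of 0.10 gave 1403, the mean of probe sets 518, no filter 0 (2788 at an unadjusted p below 0.05) and the labelling block 0 (2658). Leaving out 1 array gave 0 to 808. Of probe sets, 205 passed: 601 with a filter at the 50th percentile, 586 with trend and robust, 956 at 0.10, 577 with the floor of 64, and 0 with quantile normalization (3696 unadjusted), median centring (3869), no filter (4090) or the labelling block (3634). Leaving out 1 array gave 0 to 139. The replicate block gave 146 and moved no member across the threshold. Replicate numbers do not pair the arrays: deviations of same-numbered arrays correlated at -0.01 across genes, so the block result is given here alone. Median centring moved the median of all genes to -0.22, from -0.01.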
